A study of Caenorhabditis elegans with 48 samples.

Results

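The somatic binding of DPL-1 and LIN-35 was compared site by site in L1 larvae of Caenorhabditis elegans, using every peak that was deposited for their anti-GFP ChIP-seq. The DPL-1 strain, YL425, carries DPL-1:GFP:FLAG under the dpl-1 promoter, and the LIN-35 strain, YL409, carries LIN-35:GFP:FLAG under the lin-35 promoter. Both transgenes sit in an unc-119(ed3) III background and bring an unc-119(+) rescue marker, both keep the 3′ end of their own gene, and the untagged gene is still present. Whole larvae were fed for a few hours at 20°C after L1 starvation, so the material is mostly somatic, and no library separates one tissue from another. Peak lists hold no expression values, so stage and tissue could not be checked against markers. Each factor has 2 libraries, prepared on different dates, and each strain is a single integrated line. The 4 lists hold 18549 of the 85924 peaks in the 23 anti-GFP libraries of the series, which come from 11 strains. Those with the germline promoters pie-1 and mex-5 are from young adults, and all others are from L1 larvae. A site was defined as a merged region of peaks overlapping by at least 10 bp in which both replicates of a factor have a peak. This gave 2874 DPL-1 sites and 3274 LIN-35 sites.

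DPL-1 is the only DP protein of the worm and pairs with an E2F protein, chiefly EFL-1, to recognize DNA. LIN-35 is its only Rb-like pocket protein, has no known sequence-specific DNA-binding domain, and is carried to promoters by the E2F/DP pair and by the other subunits of the DRM complex, the worm form of DREAM. These proteins belong to the SynMuv B group, which is known for keeping cell cycle genes and germline genes low in somatic cells. The comparison asks at which sites the lists hold both proteins and at which they hold 1 of them.

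Sequences from regions of each class show what kind of DNA the peaks cover. They are motif instances that the study picked within its own site sets, which were built from these same libraries, so they illustrate the regions and carry no evidence on the classes. Capitals mark GCGC, the core of the canonical E2F site, with overlapping copies as 1 run, and GCGC was searched on both strands, which are identical for this palindrome. The share of all regions that hold it was not computed, since no genome of the build WS180 was at hand. The first set comes from shared regions, near genes of the protein, cell cycle and DRM groups described further on and at csb-1, a repair gene on X.
cdc-48.1: agcaaccGCGCcctaacgtca
sas-6: agatgGCGCGCtctatgggac
rpl-7A: agcatgtGCGCcctgccgcac
csb-1: tgtcgatagaGCGCacttgca
brc-1: tgcaaacctgctccactgaca
lin-9: atcgcgtcgagacca
The next set comes from a region with DPL-1 only and from regions with LIN-35 only.
acdh-9: aagagacgcagagggggaaag
hlh-30: gagagaaagagataggggcgg
nhr-35: cagaaatgcggacagacacac
peb-1: tggcacGCGCctctctcgact
The regions, in WS180 coordinates and with the strand of the motif, are chrII:10563176-10563835 (minus) for cdc-48.1, chrIV:13788519-13789045 (plus) for sas-6, chrIV:4390418-4390919 (minus) for rpl-7A, chrX:15866078-15866451 (minus) for csb-1, chrIII:3862796-3863511 (plus) for brc-1 and chrIII:8903873-8904586 (minus) for lin-9. Those of the second set are chrII:848567-848917 (plus) for acdh-9, chrIV:4028085-4028718 (minus) for hlh-30, chrX:4532032-4533094 (minus) for nhr-35 and chrX:2215147-2215497 (plus) for peb-1. Among the instances of the first motif of the set the study calls broadly bound, 67 of the 94 in shared regions hold GCGC, as do 22 of 33 of the first motif of the set it calls soma-specific. The study labels both motifs somatic E2F, so these shares describe the motif and not the class. Neither motif has an instance in a DPL-1 only or LIN-35 only region, so the second printed set comes from other motifs. For the first motif of the set it calls intestine-specific, 2 of 28 instances in shared regions hold GCGC. The printed instances at brc-1, lin-9, acdh-9, hlh-30 and nhr-35 do not hold it, and the one at peb-1, which encodes a pharyngeal DNA-binding protein, does.

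The LIN-35 lists were longer than the DPL-1 lists. DPL-1 replicates 1 and 2 hold 4140 and 3394 peaks, and LIN-35 replicates 1 and 2 hold 5097 and 5918. The groups do not overlap, and LIN-35 is 1.47 times higher on the ratio of geometric means, a log2 difference of 0.55. The exact permutation test (two-sided) gave p = 0.333, the smallest value that 2 libraries against 2 allow, so no comparison of single libraries here can pass 0.05. With peaks of q below 0.001, the threshold of the study, the lists hold 3383, 2739, 2951 and 4400 peaks and the groups overlap, since LIN-35 replicate 1 loses most. The q-value is the significance that PeakSeq gives a peak against input DNA. Its median was 1.64e-08 and 3.08e-08 in the DPL-1 libraries and 3.95e-04 and 6.35e-06 in the LIN-35 libraries, so the LIN-35 lists reach further into weak peaks.

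**Figure D1:**
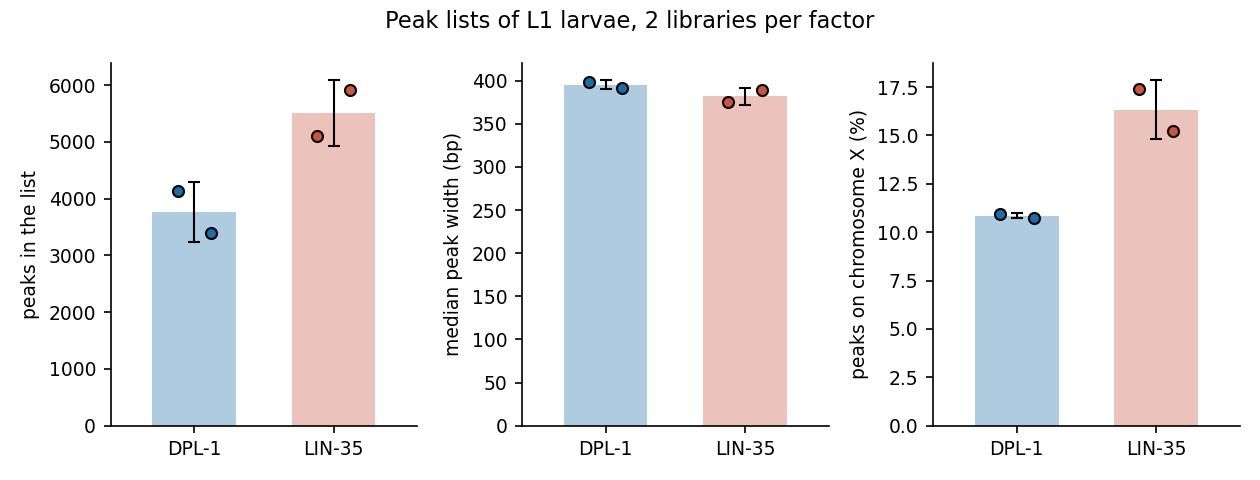
Number of peaks, median peak width in bp and share of peaks on the X chromosome (%) in the 2 DPL-1 and 2 LIN-35 libraries of L1 larvae. Points are libraries, bars are means and error bars are the SD of 2 libraries. The LIN-35 points lie above the DPL-1 points in number (5097 and 5918 against 4140 and 3394) and in X share (17.4 and 15.2% against 10.9 and 10.8%).

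Peaks of DPL-1 were found again less often in LIN-35 replicate 1 than in the other DPL-1 replicate. In LIN-35 replicate 2 they were found about as often or more often. Peaks of LIN-35 were found less often in a DPL-1 list than in the other LIN-35 replicate. Of DPL-1 replicate 1, 69.6% of peaks overlapped a peak of DPL-1 replicate 2, while 62.8% overlapped LIN-35 replicate 1 and 74.1% LIN-35 replicate 2. Of DPL-1 replicate 2, 85.1% overlapped the other replicate, 72.9% LIN-35 replicate 1 and 84.6% LIN-35 replicate 2. Both DPL-1 lists were thus found more often in LIN-35 replicate 2, the longest list, than in LIN-35 replicate 1. For LIN-35, 65.4% of replicate 1 and 55.6% of replicate 2 were found in the other replicate, and between 48.2 and 51.6% of either list in a DPL-1 list. When each list was held to the 3394 peaks with the smallest q-values, replicates shared 72.8 to 78.9% and factors 63.1 to 72.4%, and no pair of factors reached the lowest pair of replicates.

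Most sites of either factor were sites of both. Of the 2874 DPL-1 sites, 2185 (76%, 95% Wilson interval 74.4 to 77.6%) overlapped a LIN-35 site and are called shared. A further 422 (14.7%) had a LIN-35 peak in only 1 of its replicates, and 267 (9.29%, 8.28 to 10.4%) had none in either and are called DPL-1 only. Of the 3274 LIN-35 sites, 2177 (66.5%) were shared, 476 (14.5%) had a DPL-1 peak in 1 replicate, and 621 (19%, 17.7 to 20.3%) had none and are called LIN-35 only. These intervals, here and in what follows, cover counting error over sites only, and neighbouring sites are not independent. "Only" means that no peak of the other factor was listed, which at the depth of these libraries does not show that the factor is absent.

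The larger number of LIN-35 only than of DPL-1 only sites did not hold up. It turned around when the 4 lists were given equal length, where 424 sites were DPL-1 only and 311 LIN-35 only. It also turned around without DPL-1 replicate 2, where the DPL-1 sites were the peaks of replicate 1 and 949 were DPL-1 only against 812 LIN-35 only. Leaving out a LIN-35 library moved the other way, to 2557 LIN-35 only sites against 325 without replicate 1 and 2258 against 635 without replicate 2. Without DPL-1 replicate 1 the counts were 907 and 436. Which factor has more sites of its own therefore depends on how long the lists are and on which libraries define a site.

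LIN-35 replicate 1 stood apart on chromosome I. It has 558 peaks there, 10.9% of its list, while the other lists hold 827 (20.0%), 596 (17.6%) and, in LIN-35 replicate 2, 1004 (17%). Of the 422 DPL-1 sites with a LIN-35 peak in 1 replicate, 365 had it in replicate 2 alone, and 130 of these lie on chromosome I. For this reason each class was counted without that chromosome as well, a choice made after seeing the data. There were then 1823 shared, 212 DPL-1 only and 552 LIN-35 only sites.

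Sharing followed the strength of the peaks. Sites of each factor were ranked by the larger q-value of both replicates and divided into quintiles. Of the DPL-1 sites, 99.7, 95.3, 76.5, 60.2 and 48.5% were shared from the quintile with the smallest q to that with the largest. Of the LIN-35 sites, the shares were 99.2, 88.2, 65.5, 47.6 and 31.9%. No site of the strongest quintile of either factor was DPL-1 only or LIN-35 only. In the weakest quintile, 23.1% of DPL-1 sites and 46.0% of LIN-35 sites were so. The median larger q was 6.96e-14 at shared and 6.32e-04 at DPL-1 only sites of DPL-1, and 5.19e-09 at shared and 1.53e-03 at LIN-35 only sites of LIN-35.

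**Figure D2:**
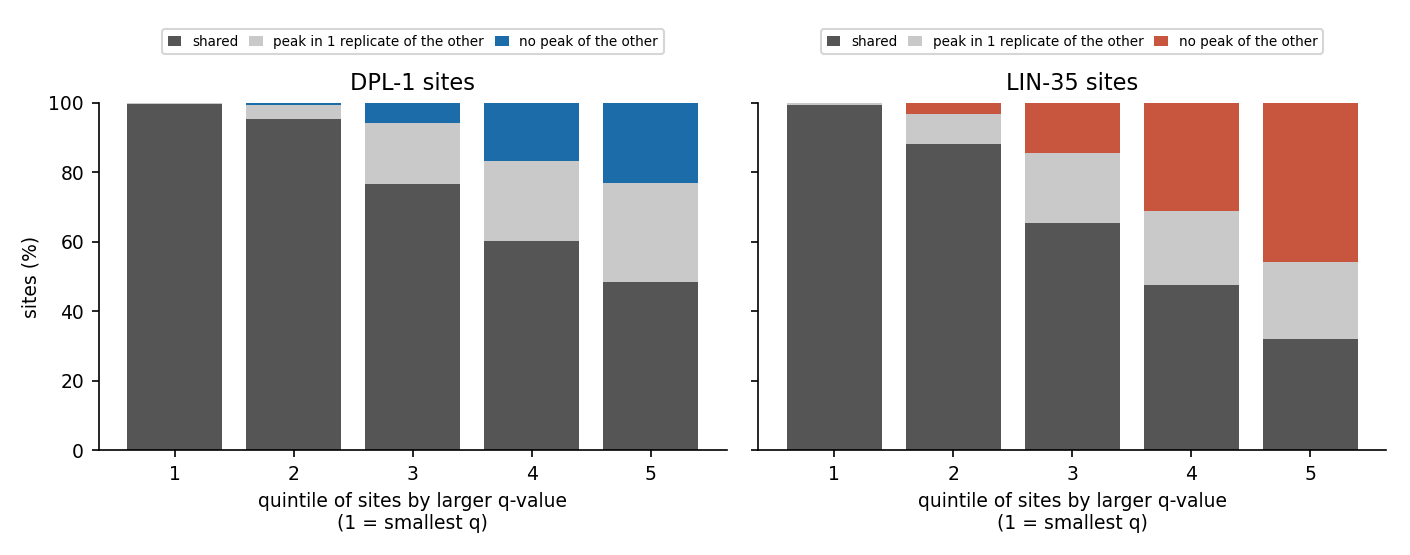
Share of DPL-1 sites (left) and LIN-35 sites (right) that were shared, had a peak of the other factor in 1 replicate or had none (%), in quintiles of the larger q-value of both replicates. Shared sites make up 99.7 and 99.2% of the quintile with the smallest q and 48.5 and 31.9% of the quintile with the largest q.

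At shared sites the peak centres of both factors lay about as far apart as those of replicates. Shared regions overlap by definition, so a short distance is partly fixed by that definition. Peaks of whole larvae do not show both proteins on the same DNA molecule. At the 2107 shared sites with 1 peak in each of the 4 libraries, the median distance between peak centres was 21.5 bp between the DPL-1 replicates and 37 bp between the LIN-35 replicates. Between a DPL-1 and a LIN-35 library it was 21 to 37.5 bp, which is nearly the range of the replicate pairs. Median widths at these sites were 473 and 424 bp in the DPL-1 libraries and 442 and 474 bp in the LIN-35 libraries, which overlap. LIN-35 peaks were wider at 54.2% of these sites, with a median ratio of 1.02. The q-value was smaller in both DPL-1 libraries than in either LIN-35 library at 969 sites (46.0%), and the reverse held at 215 (10.2%). A q-value also depends on read depth and on input, so it does not compare how much of each protein was bound.

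Sites of 1 factor had narrower peaks than shared sites. DPL-1 peaks had a median of 477 bp in replicate 1 and 427 bp in replicate 2 at shared sites, and of 325 and 282 bp at DPL-1 only sites. LIN-35 peaks had 446 and 479 bp at shared sites and 350 and 376 bp at LIN-35 only sites. The order was the same in each of the 4 libraries. Averaged over both replicates, 457 bp at shared sites stood against 307.5 bp for DPL-1, and 481 bp against 372.5 bp for LIN-35. At matched strength this held for DPL-1 but not for LIN-35. In the quintiles of q defined above, from the third to the weakest, medians of DPL-1 were 413.75, 420.5 and 389 bp at shared and 352.75, 316.25 and 286.5 bp at DPL-1 only sites. Those of LIN-35, from the second to the weakest, were 492.25, 450.5, 389.5 and 374.5 bp at shared and 569.5, 457.75, 379 and 324 bp at LIN-35 only sites. LIN-35 only sites were thus wider than shared sites in the strongest pair of these quintiles, the first of which held 21 of them, and narrower in the others.

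**Figure D3:**
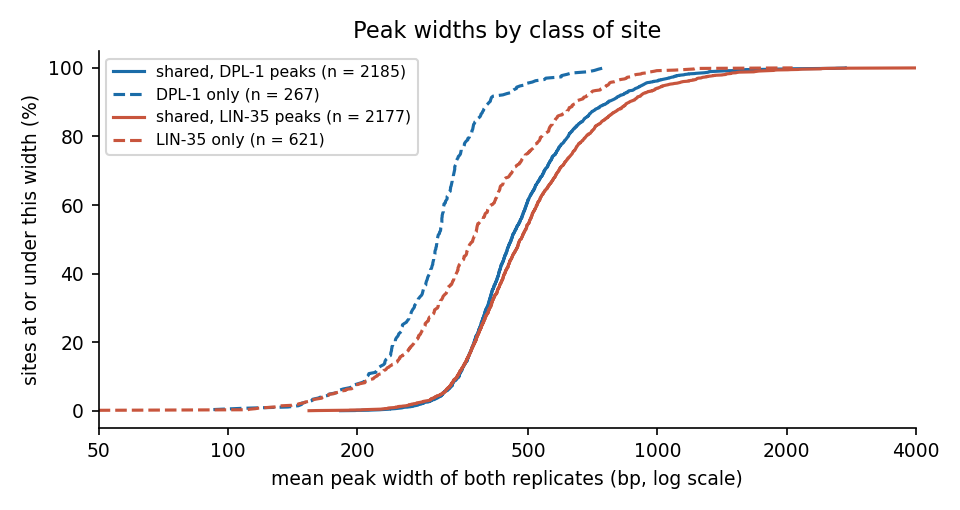
Cumulative share of sites (%) at or under a given width, the mean peak width of both replicates in bp on a log axis, for shared sites and for sites of 1 factor. The broken lines of DPL-1 only (median 307.5 bp) and LIN-35 only sites (372.5 bp) lie to the left of the solid lines of shared sites (457 and 481 bp).

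The median width of all peaks in a library told the factors apart poorly. It was 399 and 391.5 bp for DPL-1 and 375 and 389 bp for LIN-35, a difference of -13.25 bp (LIN-35 minus DPL-1; exact permutation test, two-sided, p = 0.333). The sign turned with the length of the lists, to 21.5 bp at q below 0.001 and 39 bp at equal length. The LIN-35 lists hold more very short peaks, 203 and 478 under 100 bp against 78 and 33 in the DPL-1 lists. Leaving these peaks out changed the classes little, to 2183 shared, 262 DPL-1 only and 595 LIN-35 only sites.

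LIN-35 only sites were found on the X chromosome more often than the other classes. X holds 24.2% of them (150 of 621, interval 21.0 to 27.7%), against 11.6% of DPL-1 only sites (31 of 267, 8.30 to 16%) and 9.24% of shared sites (202 of 2185, 8.10 to 10.5%). Of the 453 LIN-35 sites on X, 44.4% were shared and 33.1% LIN-35 only, whereas 64.1 to 75.7% of LIN-35 sites on each autosome were shared. Of the 270 DPL-1 sites on X, 74.8% were shared, within the range of the autosomes (65.5 to 83.6%). The LIN-35 sites with a DPL-1 peak in 1 replicate had an X share of 21.4%, and the DPL-1 sites with a LIN-35 peak in 1 replicate one of 8.77%.

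**Figure D4:**
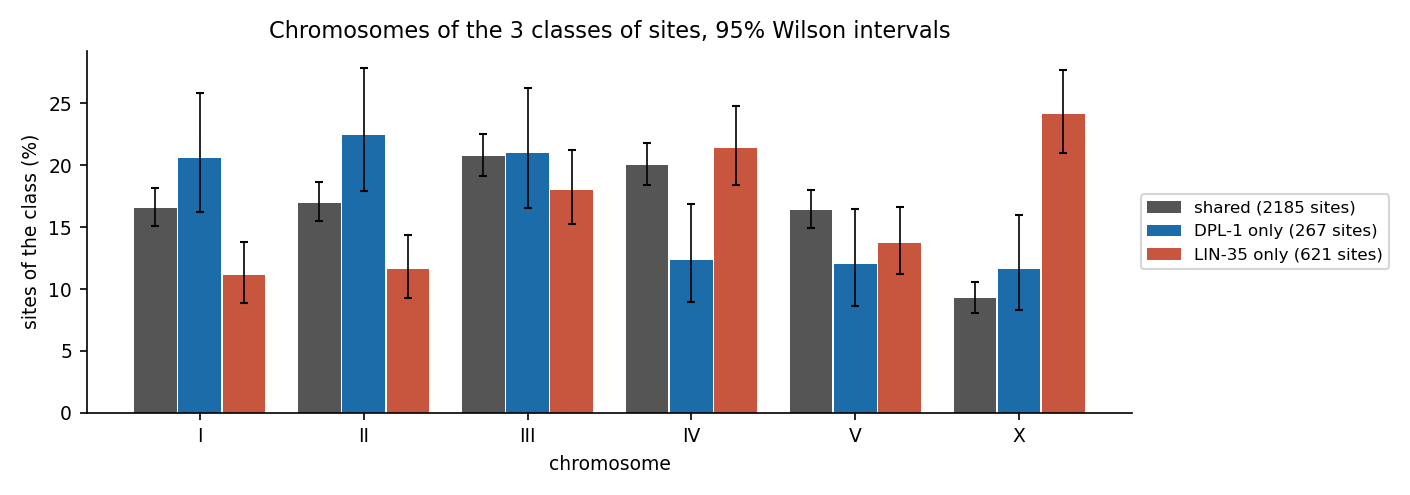
Share of the sites of each class on each chromosome (%), for 2185 shared, 267 DPL-1 only and 621 LIN-35 only sites. Error bars are 95% Wilson intervals over sites. On X the LIN-35 only bar (24.2%) lies above those of DPL-1 only (11.6%) and shared sites (9.24%).

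Sites on X were weaker, with a median larger q of 2.39e-06 at shared sites of DPL-1 on X and 4.41e-15 on the autosomes, and the X share rose with q in both factors, from 1.05 to 15.8% over the quintiles of DPL-1 sites and from 4.13 to 19.7% over those of LIN-35 sites. Among LIN-35 sites of the weakest quintile, 27.6% of LIN-35 only sites (22.8 to 32.9%) and 9.09% of shared sites (5.90 to 13.8%) lay on X. In the fourth quintile the values were 22.9 and 14.4%, and in the third 19.1 and 11.2%. In the second, with 21 LIN-35 only sites, the order was reversed, at 9.52 and 10.9%. Among DPL-1 sites, shared and DPL-1 only sites had X shares of 10.7 and 8.82% in the third quintile, 14.7 and 5.21% (5 of 96) in the fourth and 17.9 and 17.3% in the weakest.

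The whole lists gave the same order. X holds 10.9 and 10.8% of the DPL-1 peaks and 17.4 and 15.2% of the LIN-35 peaks, a difference of 5.47 percentage points (exact permutation test, two-sided, p = 0.333, the smallest possible). The groups do not overlap. The difference was 4.41 points at q below 0.001 and 3.37 points at equal length, where LIN-35 replicate 2 had 11.8% and DPL-1 replicate 2 10.8% of its peaks on X.

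EFL-1, the E2F partner of DPL-1, separated both kinds of unshared site. Peaks of EFL-1:GFP:FLAG in L1 larvae, under the efl-1 promoter, were not used to define any class. EFL-1 replicate 1, with 1588 peaks, had a peak at 57.3% of shared sites, 22.5% of DPL-1 only sites and 0.322% of LIN-35 only sites (2 of 621). EFL-1 replicate 2, with 4540 peaks, had one at 98.1% of shared sites, 89.1% of DPL-1 only sites (interval 84.8 to 92.3%) and 23.5% of LIN-35 only sites (20.3 to 27%). Most DPL-1 only sites thus had a peak in EFL-1 replicate 2, the longer list, and most LIN-35 only sites had none. Both EFL-1 replicates had a peak at 1249 shared sites (57.2%), 59 DPL-1 only sites (22.1%) and 1 LIN-35 only site. Neither EFL-1 list covered 474 LIN-35 only sites (76.3%), 28 DPL-1 only sites (10.5%) and 38 shared sites (1.74%).

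At matched strength LIN-35 only sites still had fewer EFL-1 peaks than shared sites, while for DPL-1 only sites the order depended on the EFL-1 library. From the third to the weakest quintile of LIN-35 sites, EFL-1 replicate 2 covered 97.7, 95.5 and 95.2% of shared and 35.1, 25.4 and 17.6% of LIN-35 only sites. EFL-1 replicate 1 covered 42.7, 35.3 and 31.1% of shared sites there and 1, 0 and 1 LIN-35 only sites. In the same quintiles of DPL-1 sites, EFL-1 replicate 2 covered 99.8, 97.4 and 90.0% of shared and 100, 92.7 and 83.5% of DPL-1 only sites. EFL-1 replicate 1 covered DPL-1 only sites more often than shared ones, at 44.1, 26.0 and 12.8% against 41.1, 12.4 and 8.96%, with intervals that did not overlap in the fourth quintile alone. Under all the other definitions of a site and without any one library, EFL-1 replicate 2 covered 59.3 to 96.6% of DPL-1 only sites and 7.72 to 43.8% of LIN-35 only sites. On X, it covered 71.0% of DPL-1 only sites (22 of 31) and 36.0% of LIN-35 only sites (54 of 150).

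A few LIN-35 only sites had strong peaks in EFL-1 replicate 2. Of the 146 with a peak in that library, 86 had q below 0.001, and the median q was 5.58e-04. The smallest q-value, 4.20e-76, stood at dpl-1 itself (chrII:9169331-9169762), where LIN-35 had peaks in both replicates (7.03e-07 and 6.78e-15), EFL-1 replicate 1 had one (9.88e-10) and neither DPL-1 library had any. The DPL-1 strain carries further copies of this region in its transgene, and the part of those copies in the missing peak was not tested. The next was a region between catp-8 and mbf-1 (chrIV:11478928-11480058), with 1.79e-67 in EFL-1 replicate 2, no peak in replicate 1, and 8.55e-09 and 3.06e-06 in LIN-35. The third smallest was already 8.12e-15.

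The other libraries, among them those from single tissues, gave a finer view. They mix stages: EFL-1 in whole L1 larvae, intestinal libraries of L1 larvae, and germline libraries of young adults under the pie-1 or mex-5 promoter. Of the 19 anti-GFP libraries outside the comparison, every one had its highest share of covered sites in the shared class. DPL-1 only sites were covered more often than LIN-35 only sites in 14 of them and less often in 5. The 14 include every DPL-1 and EFL-1 library. All HPL-2 libraries are among the 5, and the LIN-35 libraries fall on both sides. The count therefore depends on which factors were profiled. In the intestine of L1 larvae, where the ges-1 promoter drives the tagged protein, DPL-1 replicate 1 had a peak at 98.4% of shared, 91.4% of DPL-1 only and 53.0% of LIN-35 only sites. Replicate 2, with a shorter list, had one at 81.3, 34.5 and 10.3%. More than 50% of LIN-35 only sites of the whole larva thus had a listed DPL-1 peak in 1 intestinal library.

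Intestinal LIN-35 covered the unshared sites in both orders. Its replicate 1, with 7283 peaks, had a peak at 95.2% of shared, 77.9% of DPL-1 only and 39.9% of LIN-35 only sites. Its replicate 2, with 2125 peaks, had one at 54.9, 3.75 and 12.2%. The longer list, of replicate 1, therefore held most DPL-1 only sites, at which neither somatic LIN-35 list had a peak, and the shorter list held few of them. The part of list length in this difference was not tested. HPL-2, an HP1-like heterochromatin protein, was assayed in the intestine as well. Its 3 replicates hold 6960, 1707 and 4684 peaks. They had a peak at 89.2, 30.6 and 55.2% of shared sites, at 43.8, 3.00 and 13.1% of DPL-1 only sites, and at 44.3, 10.5 and 31.7% of LIN-35 only sites. HPL-2 replicate 1 thus covered both kinds of unshared site alike, and replicates 2 and 3 covered LIN-35 only sites more often.

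**Figure D5:**
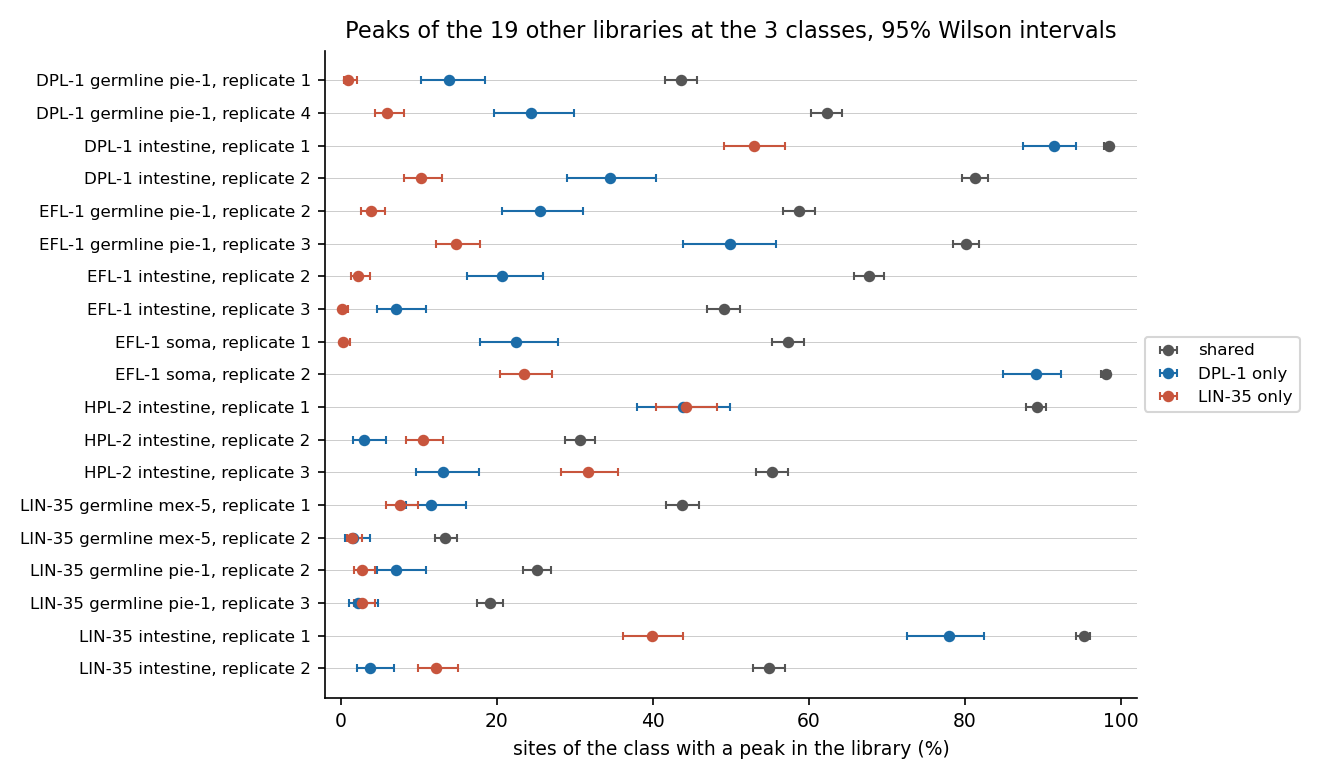
Share of shared, DPL-1 only and LIN-35 only sites (%) that had a peak in each of the 19 other anti-GFP libraries, with 95% Wilson intervals over sites. Germline libraries are from young adults and all others from L1 larvae. Shared sites lead in 19 of 19 libraries. DPL-1 only sites lie above LIN-35 only sites in 14, among them every DPL-1 and EFL-1 library and no HPL-2 library. The widest gap is in EFL-1 soma replicate 2 (89.1 against 23.5%).

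LIN-35 only sites were also the sites seen least elsewhere. A median of 11 of the 19 other libraries had a peak at a shared site, 5 at a DPL-1 only site and 2 at a LIN-35 only site. No other library had a peak at 157 LIN-35 only sites (25.3%, interval 22.0 to 28.8%), against 2 DPL-1 only sites and 1 shared site. The nearest peak of the other factor was at a median distance of 4212 bp from a DPL-1 only site and 6508 bp from a LIN-35 only site. It lay within 500 bp at 13 and 22 of them, so few were displaced from a peak of the other factor by a short distance.

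Of the 6 strongest shared sites, 4 had a peak in all 19 other libraries and 2 in 17. The study left sites with intestinal HPL-2 out of its soma-specific set, because many of them count as non-specific. HPL-2 replicate 1 covered 89.2% of shared sites, and how many are of that kind was not tested. The smallest of the larger q-values stood at dld-1, dihydrolipoamide dehydrogenase of the mitochondrial matrix (chrIV:14463858-14464544). DPL-1 had 3.85e-171 and 4.24e-145 there, LIN-35 had 1.45e-101 and 4.94e-126, and all 19 other libraries had a peak. At Y54G11A.2 (chrII:14251183-14252046) the DPL-1 values were 1.54e-238 and 3.63e-225 and the LIN-35 values 1.54e-95 and 1.28e-177. EFL-1 replicate 1 had a strong peak there (1.44e-97), while replicate 2 listed none. At cdc-48.1, an AAA ATPase that unfolds ubiquitinated proteins, they were 2.75e-161 and 1.36e-133 for DPL-1 and 4.37e-91 and 4.26e-93 for LIN-35, in the region whose GCGC motif is printed above. Peak widths at cdc-48.1 were 602 and 591 bp for DPL-1 and 476 and 653 bp for LIN-35.

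The strongest DPL-1 only sites were weaker by many orders of magnitude in q but carried EFL-1. At K03H1.7 (chrIII:9946936-9947310), the DPL-1 q-values were 3.36e-34 and 1.02e-21 with widths of 370 and 374 bp, and EFL-1 had 6.64e-11 and 4.28e-70. Between ggtb-1, a geranylgeranyl transferase subunit, and pot-1, a telomere protein (chrIII:7133506-7133881), DPL-1 had 1.56e-37 and 1.65e-14 and EFL-1 had 1.28e-08 and 1.17e-40. Next to nol-14 and xpo-2, a nuclear export receptor, DPL-1 had 7.99e-12 and 1.82e-13, and EFL-1 a peak in replicate 2 alone (2.62e-22). All 6 of the strongest DPL-1 only sites had a peak in EFL-1 replicate 2, as did 89.1% of the class.

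The strongest LIN-35 only sites had weak EFL-1 peaks or none, and some were broad. The first (chrIV:10341618-10342828) had LIN-35 q-values of 3.55e-15 and 1.80e-18, widths of 1115 and 1211 bp, and no EFL-1 peak. At sup-26, which encodes an RNA-binding protein (chrIII:4280302-4281346), the q-values were 4.38e-13 and 2.76e-12, the widths 950 and 1045 bp, and EFL-1 had no peak. A site on X (chrX:535729-536221) had 2.46e-11 and 3.97e-11 in LIN-35 and 4.30e-05 in EFL-1 replicate 2. Of the 6 strongest, 3 had an EFL-1 peak, all in replicate 2, which covered 23.5% of all LIN-35 only sites. The smallest q of these 3 was 5.15e-06.

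Genes were named from transcript starts within 500 bp of a site. These starts come from position tables of the study that list genes it found bound, so a site without a named gene is not a site without a gene. Chromosome V was left out because the table was shifted there by a median of 169 bp against the peaks. On the other chromosomes, 70.3% of shared, 41.3% of DPL-1 only and 8.58% of LIN-35 only sites had a named gene. Of the 2261 genes next to a site, 1758 (77.8%) stood at a shared site, 114 (5.04%) at a DPL-1 only site, 232 (10.3%) at a DPL-1 site with LIN-35 in 1 replicate, 48 (2.12%) at a LIN-35 only site and 109 (4.82%) at a LIN-35 site with DPL-1 in 1 replicate. The counts by gene group are to be read against these shares. Neighbouring genes can stand at the same site, so genes are not independent.

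Of the 7 DRM and SynMuv B genes next to a site, 6 were shared, near the 77.8% over all genes, and dpl-1 was LIN-35 only. At lin-54, the DNA-binding subunit of DRM, DPL-1 had q-values of 5.05e-121 and 5.07e-104 and LIN-35 had 1.54e-63 and 2.59e-81, in a region that also holds the start of rpl-12. At lin-9, another DRM subunit, they were 3.02e-104 and 1.90e-108, and 2.78e-51 and 1.54e-60. At lin-35 itself, DPL-1 had 1.39e-132 and 4.11e-116 and LIN-35 had 9.51e-30 and 2.73e-24, with LIN-35 peaks of 1406 and 2169 bp. The LIN-35 strain carries further copies of the lin-35 region, and their part in these broad peaks was not tested. The 7 genes of histone methylation and germline chromatin next to a site were all shared, against 77.8% over all genes. Among them are mes-2 and mes-6 of the Polycomb complex that methylates H3K27.

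Most cell cycle genes next to a site had both factors. They are classical targets of E2F. In DNA replication, 26 of 37 listed genes were next to a site. Of these, 25 were shared, including pcn-1, the sliding clamp (DPL-1 1.95e-163 and 2.45e-166, LIN-35 2.43e-55 and 6.48e-80), against 77.8% over all genes. The remaining gene was chaf-1, a histone chaperone subunit, with DPL-1 in both replicates and LIN-35 in replicate 2 alone (2.48e-10). In mitosis, 31 of 44 listed genes were next to a site. Of these, 29 were shared, including sas-6, which builds centrioles (DPL-1 2.45e-120 and 1.79e-83, LIN-35 2.04e-40 and 1.02e-51), against 77.8% over all genes. Of the others, capg-1, a condensin subunit, had DPL-1 at 1.86e-45 and 7.31e-07 and LIN-35 in replicate 2 alone (9.19e-03), while klp-7, a microtubule-depolymerizing kinesin, had LIN-35 in both and DPL-1 in replicate 1 alone (1.56e-09). Of 14 listed genes of cell cycle entry and exit, 7 were in the position tables and 4 next to a site. These 4 were shared, with wee-1.3, a kinase that holds back mitosis, the strongest. In DNA repair 6 of 7 were shared, near the 77.8% over all genes, and xpa-1, of nucleotide excision repair, had LIN-35 in replicate 2 alone.

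Most genes of the protein and RNA machinery next to a site were shared as well. All 21 proteasome genes, 78 of 83 genes of translation and 18 of 21 splicing genes were shared, against 77.8% over all genes. The 5 other translation genes, eif-2Bbeta, rpl-30, eif-2Balpha, eif-3.G and eif-4A3, had DPL-1 in both and LIN-35 in 1 replicate. At prp-9, a splicing factor, DPL-1 stood alone (1.87e-12 and 2.37e-04), and snr-7 and prp-31 had LIN-35 in replicate 2 alone. Of the endoplasmic reticulum stress genes, 5 of 6 were shared, among them ire-1 and atf-6, both sensors of unfolded protein, and the chaperone hsp-3. The chaperone dnj-7 was DPL-1 only, with weak peaks (3.28e-03 and 1.60e-03).

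Of 8 small RNA genes next to a site, 3 were shared, namely rde-4, rrf-3 and ekl-1. DPL-1 stood alone at mut-16, which organizes the foci where small RNAs are amplified (2.13e-07 and 4.75e-03). LIN-35 had a peak in 1 replicate at alg-2 and wago-4, both Argonaute genes, and at mut-7, an exonuclease gene, whose region is also that of eif-2Balpha. At ego-1, an RNA-dependent RNA polymerase, LIN-35 had peaks in both replicates (6.76e-05 and 2.70e-09) and DPL-1 in replicate 1 alone (5.76e-04). The LIN-35 peaks were broad, 3581 and 3624 bp, the DPL-1 peak was 1193 bp wide, and neither EFL-1 library had a peak. The study describes binding at ego-1 as specific to the germline. The list is short, so 3 of 8 against 77.8% of all genes rests on 5 genes.

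Most genes of differentiated tissues could not be assessed. None of the 15 muscle or 19 epidermis genes was in the position tables, and 8 of 33 intestinal and metabolic and 3 of 19 neuronal genes were. Of the 8 intestinal and metabolic genes, 4 were next to a site, namely elo-1, fat-3, gpd-2 and pnp-1. Only elo-1, a fatty acid elongase, was shared, and fat-3, a fatty acid desaturase, was LIN-35 only with weak peaks (6.49e-03 and 3.45e-03). At gpd-2, a glycolytic enzyme, LIN-35 had 8.68e-17 and 3.64e-16 and DPL-1 a peak in replicate 1 alone (7.35e-03). Of the neuronal genes, ric-19 was shared. At unc-119, LIN-35 had 4.16e-03 and 3.02e-03, and DPL-1 had no peak in replicate 1 and 1.12e-129 in replicate 2. Since unc-119 is the rescue marker of both transgenes, its peaks cannot be told apart from signal of the transgene copies.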

How the data were processed

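Anti-GFP ChIP-seq peaks of 2 DPL-1 and 2 LIN-35 libraries from L1 larvae were analysed, with 19 other libraries for comparison. The authors called the deposited peaks with PeakSeq in each library against input DNA, and combined 2 sequencing runs in each LIN-35 replicate before calling. The deposited q-value reaches 0.01, and positions are those of WormBase WS180. The aligner was not given in the sources used here. Peak lists hold no read depth. By the read totals the study gives, LIN-35 replicate 2, the longest list, had the fewest ChIP reads of the 4.

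All peaks were used. Peaks overlapping by 10 bp were merged, overlaps equalled those of bedtools 2.31.1 in 6 of 6 pairs, and simulated sites of every class came back (200 of 200). Python 3.11.15 with numpy 2.4.6 and scipy 1.17.1 was used. Libraries were compared by exact permutation tests. The sources pair no replicate numbers. Genes were named where their start lay within 500 bp, with symbols taken from RefSeq (assembly WBcel235, no coordinates), where 3315 of 3624 sequence names were found. The rule named, for each class, the 6 sites whose larger q-value was smallest, up to 5 members of each list and class, and the genes of the factors. Of these, efl-1 and mes-4 lie on chromosome V and were not placed, and not every gene selected is printed. Members and lists were chosen with earlier results of these data known. Alternatives were q below 0.001, equal list lengths, a peak in at least 1 replicate, a looser definition of absence, other overlaps, the width of the merged region, each library left out and the replicate block. Leaving out chromosome I or peaks under 100 bp, the crossed block, the settings applied to EFL-1 and libraries left out of the tests between libraries were added after seeing the data.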

Additional observations from a re-analysis of the deposited data

How the results depend on the processing

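Of 207 alternative values, 145 were called unchanged, 58 moved and 4 turned around. Unchanged meant within the spread or 1.5 times of the reported value. For the differences between libraries it meant only that the sign was kept. The excess of LIN-35 only over DPL-1 only sites, 354 as reported, was 177 at q below 0.001, -113 at equal list length, 3045 with a peak in at least 1 replicate and -137 to 2232 with a library left out. Equal length also gave 424 DPL-1 only and 311 LIN-35 only sites, X shares of 19.9% at LIN-35 only sites, a LIN-35 only width of 438.5 bp, a difference of 39 bp in median peak width, and EFL-1 replicate 2 at 99.0% of shared, 95% of DPL-1 only and 36.3% of LIN-35 only sites. At q below 0.001 the values were 410 LIN-35 only sites with a width of 442.5 bp, an X share of 6.87% at DPL-1 only sites, 21.5 bp in median peak width, and EFL-1 replicate 2 at 99.2, 96.6 and 40.5% of the classes in the same order. With a peak in at least 1 replicate, there were 3526 shared sites (3506 over LIN-35 sites), 1112 DPL-1 only and 4157 LIN-35 only sites, widths of 416.5 and 444 bp (shared, DPL-1 and LIN-35 peaks), 271.5 and 258 bp (DPL-1 only and LIN-35 only), an X share of 11.6% at shared sites, and EFL-1 replicate 2 at 89.7, 59.3 and 7.72%. With absence taken as no site, 689 sites were DPL-1 only and 1097 LIN-35 only, the latter 396 bp wide, and EFL-1 replicate 2 covered 93.5 and 43.8% of them. Merged regions were 507 and 554 bp wide at shared, 342 bp at DPL-1 only and 471 bp at LIN-35 only sites. Without chromosome I the X share of shared sites was 11.1%.

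With a library left out, shared sites numbered 2239 to 2549 (2261 to 2555 over LIN-35 sites), DPL-1 only sites 325 to 949 and LIN-35 only sites 812 to 2557. Widths were 425 to 467 and 443 to 478 bp at shared sites, 278.5 to 333 bp at DPL-1 only and 269 to 384.5 bp at LIN-35 only sites. X shares were 9.20 to 10.8%, 10.1 to 13.8% and 20.5 to 24.5%, and EFL-1 replicate 2 covered 94.6 to 98.0%, 63.5 to 93.4% and 8.19 to 37.7% of shared, DPL-1 only and LIN-35 only sites. The cause of these shifts was not tested beyond the number of peaks that each setting keeps.

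With the replicate number as a block, the differences in peak number (0.55 on the log2 scale), width (-13.25 bp) and X share (5.47 points) kept their values and p became 0.5, the smallest the exact block test allows. Deviations at same-numbered libraries correlated at -0.149 over shared sites. Each library carries its own date, so the labels pair neither same nor crossed numbers. The crossed block, chosen after seeing the data, also gave 0 calls. The block changed no call. The peak lists hold no read depth, so its part in the classes was not tested, and with 2 libraries a factor no test can pass 0.05.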
